A study of Arabidopsis thaliana with 4 samples.

Results

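The 48 genes described here are those through which the hormone auxin is perceived and acts on transcription in Arabidopsis thaliana. They comprise the 29 Aux/IAA genes, 7 GH3 genes, 5 genes of the TIR1/AFB receptor family and 7 ARF genes. They were picked by locus identifier, not by their values, though with earlier results of these data known. All 48 were found among the 33544 genes listed in each table. Polyadenylated RNA of whole seedlings was sequenced at an age of 14 days, with 2 libraries from wild-type Col-0 and 2 from ect2, a line of the same background with a T-DNA insertion in ECT2. ECT2 encodes a reader of the RNA mark N6-methyladenosine. The labels name a single insertion genotype without an allele, give growth on medium or soil in long days with no treatment, and do not say whether replicates came from separate plants. The p-values therefore measure the spread between these libraries, which may be technical.

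Auxin binds in a pocket formed by an F-box protein of the TIR1/AFB family and a short degron of an Aux/IAA protein, and the Aux/IAA protein is then ubiquitinated and degraded. Aux/IAA proteins otherwise sit on ARF transcription factors, which bind auxin response elements in promoters, and hold their targets silent. Many Aux/IAA genes and the acyl acid amido synthetases of the GH3 family are themselves auxin-induced, so they serve as negative feedback: the former restore the repressors, and the latter conjugate auxin to amino acids.

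The degron sets the Aux/IAA genes apart from each other, so its coding stretch is shown for members whose values recur below. The core of the degron, read as glycine, tryptophan and a pair of prolines, was searched as the codon pattern GGNTGGCCNCCN in frame in every annotated coding sequence (RefSeq, TAIR10.1). It was found in 34 of 27444 protein-coding genes, of which 23 were Aux/IAA genes, and in none of the GH3, receptor and ARF genes. A valine codon, GTN, followed in 17 genes, all of them Aux/IAA genes. IAA8, IAA10, IAA11, IAA12, IAA13 and IAA27 had the 4 core codons and a codon for another amino acid after them. IAA20, IAA30, IAA31, IAA32, IAA33 and IAA34 had no core pattern. Each line below gives 39 coding bases from 5′ to 3′, with the 4 core codons in capitals.
IAA29: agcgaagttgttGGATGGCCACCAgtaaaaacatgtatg
IAA2: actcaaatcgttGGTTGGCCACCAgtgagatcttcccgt
IAA3: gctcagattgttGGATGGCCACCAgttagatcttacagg
IAA16: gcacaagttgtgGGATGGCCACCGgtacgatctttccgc
IAA28: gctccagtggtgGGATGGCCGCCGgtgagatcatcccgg
IAA8: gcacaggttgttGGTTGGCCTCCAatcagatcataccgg

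Values were read as FPKM, which is an inference, as no label names the unit. FPKM are fragments scaled to transcript length and to the mapped fragments of the library. On that reading, levels can be set side by side between genes. Read totals are not given and the depth is unknown. From 18908 to 19114 genes per library had 1 FPKM or more. ECT2 itself (AT3G13460) had 137 and 76.7 in the wild type against 9.07 and 8.58 FPKM in the mutant. Leaf genes for Rubisco and antenna proteins (4 markers) summed to between 23074 and 28936 FPKM, root markers (5) to between 28.0 and 40.1 FPKM, and flower markers (4, of which 3 were listed at 0 in some library) to at most 1.58 FPKM. The sums of leaf and root markers overlapped between genotypes. Single leaf markers differed in direction. RBCS2B was listed at 2754 and 1808 in the wild type against 774 and 1803 FPKM in the mutant. LHCB1.1 was listed at 7375 and 9466 in the wild type against 10803 and 10218 FPKM in the mutant. RBCS1A and LHCB2.1 overlapped between genotypes. Col-0 replicate 1 stood apart from the other 3 libraries. Its 4 seed storage markers summed to 143 FPKM against 4.13 to 5.20 FPKM elsewhere, and its 4 sugar-starvation markers to 54.1 FPKM against 1116 to 1866 FPKM. Medians of lists and differences of 0.5 or more are therefore also given below without that library. Evening clock genes (5) summed to 172 and 100.0 FPKM in Col-0 and to 310 and 91.8 FPKM in ect2. These sums were higher in replicate 1 of both genotypes. Not every gene followed the sums, as PRR5 and GI were lower in Col-0 replicate 1 than in Col-0 replicate 2. The 3 morning clock genes summed to 3.72 FPKM in ect2 replicate 1 and to between 7.81 and 9.17 FPKM in the others. CCA1 and LHY were lowest in ect2 replicate 1. PRR9 was low in both mutant libraries, at 2.74 and 2.52 in the wild type against 1.37 and 1.30 FPKM in the mutant.

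Of the 48 genes, 40 reached 1 FPKM in at least 2 libraries and were tested in the fit over all 19308 such genes (limma on log2(FPKM + 1)). None of these 40 passed by way of a single genotype. At an adjusted p below 0.05, 0 of the 40 were called, where the background was 0.0259% of all genes tested, and the smallest adjusted p among them was 0.842. At an unadjusted p below 0.05 there were 5 of 40, IAA1, IAA3, IAA4, IAA29 and GH3.3, all with higher values in ect2, beside 4.86% of all genes. The differences were mostly positive, 32 of 40, where 48.8% of all genes tested were positive. Their median was 0.36 on the log2 scale, against -0.0096 for all genes. Without Col-0 replicate 1 the differences were positive in 34 of 40, beside 45.8% of all genes, and the median was 0.16 against -0.033. Both ect2 libraries lay above both Col-0 libraries in 18 of the 40 (background 17.5%) and below both in 2, IAA28 and ARF8 (background 20.2%). In 25 of the 40, Col-0 replicate 1 was the lowest of the 4 libraries, which held for 36.0% of all genes tested. In whole seedlings, fewer cells of a type and less RNA per cell cannot be told apart.

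**Figure D1:**
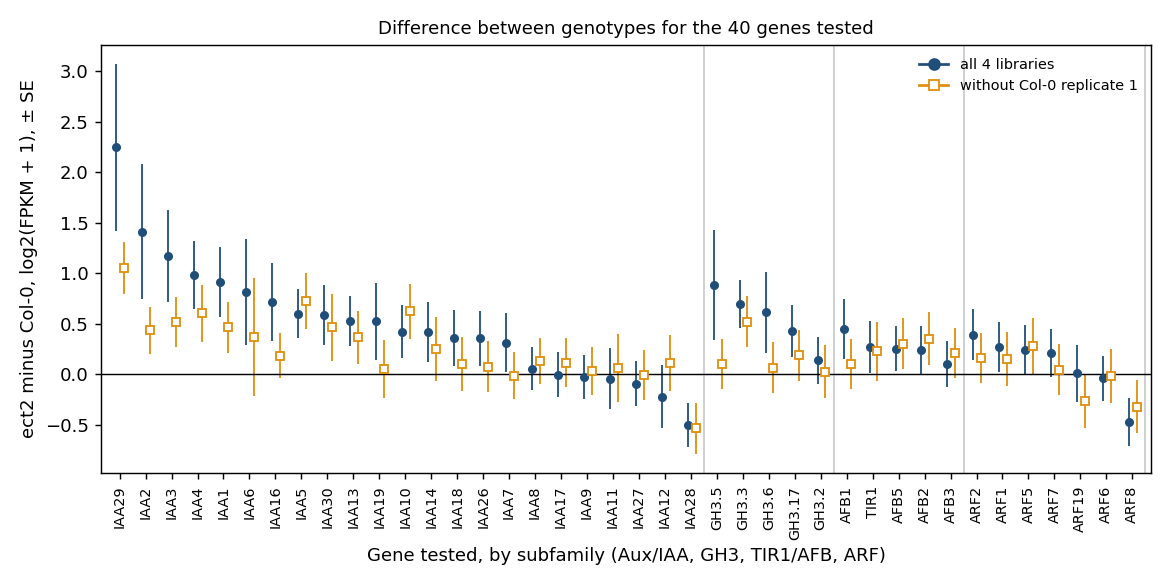
Difference between ect2 and Col-0 on the log2(FPKM + 1) scale, with its standard error from limma, for the 40 genes tested, with all 4 libraries (filled circles) and without Col-0 replicate 1 (open squares). Standard errors of the open squares hold no spread between Col-0 libraries, as a single one was left. IAA29 reached 2.25 with all libraries and 1.05 without that library, and the receptors and ARF genes lay between -0.47 and 0.45 in the former.

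The receptor genes were listed at similar levels throughout, and all 5 were tested with a positive difference. TIR1 (AT3G62980), the founding auxin receptor, was the highest of the family at 53.0 and 56.3 in the wild type against 78.5 and 55.7 FPKM in the mutant. Only ect2 replicate 1 stood above the rest, and the genotypes overlapped (difference 0.27 ± 0.26 SE, limma adjusted p = 0.856). AFB5 (AT5G49980), a receptor that also binds the synthetic auxin picloram, was listed at 39.7 and 37.2 in the wild type against 49.6 and 42.8 FPKM in the mutant. Its genotypes did not overlap, at a difference of 0.25 ± 0.22 (limma, adjusted p = 0.849). AFB1 (AT4G03190), which acts in rapid auxin responses of the root, was listed at 21.1 and 34.6 in the wild type against 39.2 and 35.4 FPKM in the mutant. Col-0 replicate 1 was low here, and the difference of 0.45 ± 0.30 was 0.10 without it. AFB2 (AT3G26810) stood at 26.0 and 22.0 in the wild type against 31.5 and 25.6 FPKM in the mutant. AFB3 (AT1G12820), its close relative, stood at 25.6 and 21.9 FPKM and at 26.5 and 24.5 FPKM. Both genes overlapped between genotypes, at differences of 0.24 and 0.10. The order of mean levels over the 4 libraries was TIR1 (60.9 ± 11.8 FPKM, SD), AFB5 (42.4 ± 5.35 FPKM), AFB1 (32.5 ± 7.91 FPKM), AFB2 (26.3 ± 3.91 FPKM) and AFB3 (24.6 ± 2.00 FPKM). The range of TIR1 lay above that of AFB5, while from AFB5 on the ranges of neighbours in that order overlapped. The median difference of the receptors was 0.25. It came to 0.23 when Col-0 replicate 1 was left out, and to 0.094 when ect2 replicate 1 was.

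Among the ARF genes, ARF1 and ARF2 encode factors that repress, while ARF5, ARF6, ARF7, ARF8 and ARF19 encode activators. The repressor ARF2 (AT5G62000) made up 48.9% of the summed FPKM of the 7 genes, at 36.5 and 50.8 in the wild type against 59.3 and 54.6 FPKM in the mutant. Its ect2 libraries lay above both Col-0 libraries, of which replicate 1 was the lower, and the difference was 0.39 ± 0.25 (limma, adjusted p = 0.842) with that library and 0.16 without it. ARF1 (AT1G59750) was next, at 16.1 and 19.2 in the wild type against 24.1 and 19.0 FPKM in the mutant, and overlapped between genotypes. Of the activators, ARF6 (AT1G30330), which with ARF8 promotes flower maturation and stem growth, was the highest and the steadiest, at 12.9, 12.4, 13.5 and 11.1 FPKM in Col-0 replicates 1 and 2 and ect2 replicates 1 and 2. ARF8 (AT5G37020) went the other way from most of the genes described here. It was listed at 7.95 and 6.26 in the wild type against 4.40 and 5.26 FPKM in the mutant, so that both ect2 libraries were lower. The difference was -0.47 ± 0.24 (limma, adjusted p = 0.842) and -0.32 without Col-0 replicate 1. ARF5 (AT1G19850), also called MONOPTEROS, which patterns the embryo and vasculature, was listed at 5.20 and 4.87 in the wild type against 7.16 and 5.22 FPKM in the mutant, the latter barely above the highest Col-0 value. ARF7 (AT5G20730) and ARF19 (AT1G19220), the pair behind lateral root formation, ranged over 4.95 to 6.80 FPKM and 1.93 to 3.29 FPKM, with differences of 0.21 and 0.0084. Over the 7 ARF genes the median difference was 0.21, coming to 0.046 when Col-0 replicate 1 was left out and to 0.045 when ect2 replicate 1 was.

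**Figure D2:**
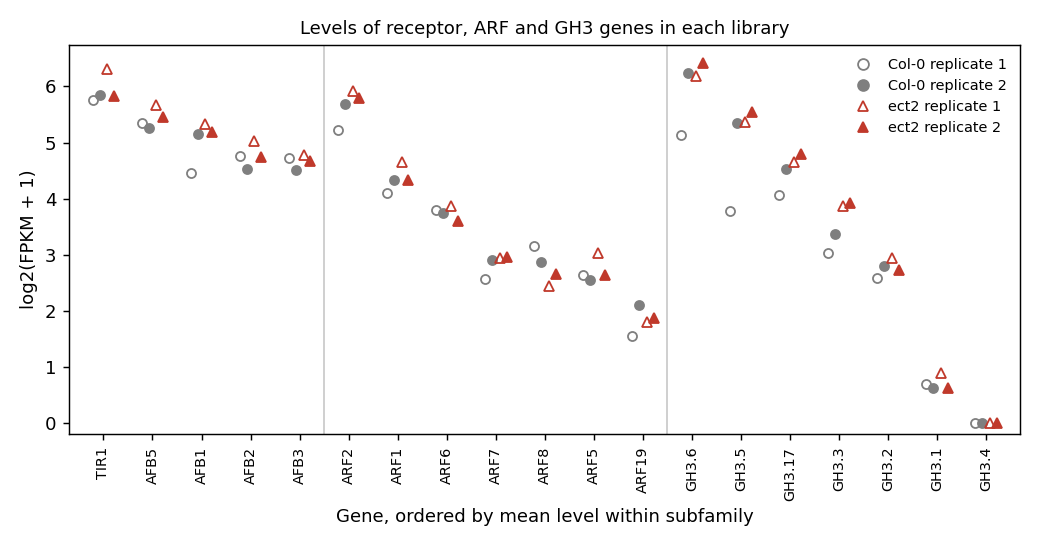
log2(FPKM + 1) of the 5 receptor, 7 ARF and 7 GH3 genes in each of the 4 libraries, ordered by mean level within each subfamily (circles, Col-0; triangles, ect2; open, replicate 1; filled, replicate 2). Col-0 replicate 1 lay lowest for the 5 GH3 genes tested, and GH3.4 was listed at 0 in every library.

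The Aux/IAA genes spanned a wide range of levels, and a few of them held most of the family's RNA. IAA16, IAA8, IAA7 and IAA9 together made up 57.5% of the summed Aux/IAA FPKM, as a mean over libraries, and the ranges of neighbours in that order overlapped. IAA8 (AT2G22670) was listed at 183 and 164 in the wild type against 185 and 174 FPKM in the mutant. IAA9 (AT5G65670), whose tomato ortholog restrains fruit set, was listed at 154 and 143 FPKM and at 157 and 136 FPKM. In both genes the genotypes overlapped, at differences of 0.053 ± 0.21 and -0.024 ± 0.22. IAA17 (AT1G04250), known from the axr3 mutant with its stabilised protein, overlapped as well, at 83.8 and 71.1 in the wild type against 73.8 and 80.4 FPKM in the mutant (difference -0.0032 ± 0.22). IAA27 (AT4G29080) stayed between 23.7 and 27.5 FPKM in the 4 libraries.

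The other abundant members were low in Col-0 replicate 1. IAA16 (AT3G04730) was listed there at 118 FPKM, against 247 FPKM in Col-0 replicate 2 and 288 and 273 FPKM in ect2. Col-0 replicate 2 was near the mutant libraries, and the difference of 0.72 ± 0.38 (limma, adjusted p = 0.842) was 0.19 without Col-0 replicate 1. IAA7 (AT3G23050), whose stabilised form causes the agravitropic axr2 phenotype, was listed at 111 and 175 in the wild type against 163 and 185 FPKM in the mutant, so the genotypes overlapped. IAA2 (AT3G23030), an early auxin-induced gene, was listed at 28.4 and 113 in the wild type against 150 and 157 FPKM in the mutant. Both mutant libraries were higher, yet the single Col-0 libraries differed from each other by more than the genotype means did. Its difference was 1.41 ± 0.67 (limma, adjusted p = 0.842), or 2.17-fold in mean FPKM, and 0.43 without Col-0 replicate 1.

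The largest difference among the 40 genes was that of IAA29 (AT4G32280), an Aux/IAA gene induced in shade by PIF transcription factors. It was listed at 1.20 and 10.5 in the wild type against 24.5 and 21.4 FPKM in the mutant. The ect2 libraries were close to each other and above both Col-0 libraries, and Col-0 replicate 1 was the lowest by far. The wild-type mean was 5.87 ± 6.60 FPKM and the mutant mean 22.97 ± 2.20 FPKM (SD, 2 libraries per genotype), a 3.91-fold ratio, and the difference was 2.25 ± 0.82 (limma, adjusted p = 0.842). Without Col-0 replicate 1 it was 1.05, a value that rests on a single wild-type library and so comes without a measure of wild-type spread.

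In 3 further auxin-induced members Col-0 replicate 1 was likewise the lowest library and both ect2 libraries the highest. IAA3 (AT1G04240), also named SHY2, which limits root meristem size, was listed at 12.2 and 31.8 in the wild type against 43.9 and 48.04 FPKM in the mutant. Both Col-0 libraries were lower, replicate 1 most, at a difference of 1.17 ± 0.46 and of 0.52 without that library. Of its transcript, 33.8% of the 50-base stretches also occur in transcripts of the gene on the opposite strand, AT1G04230. That neighbour was listed at 3.16 to 6.94 FPKM, lowest in Col-0 replicate 1, and how reads were assigned by strand is not stated. IAA10, IAA32 and IAA34 share 22.8%, 49.3% and 8.05% of such stretches with a neighbouring gene, so their values too are uncertain, while 37 of the 48 share none. IAA4 (AT5G43700) was listed at 33.4 and 57.1 in the wild type against 102 and 74.8 FPKM in the mutant. The genotypes did not overlap, with 0.98 ± 0.34 over 4 libraries and 0.60 without Col-0 replicate 1. IAA1 (AT4G14560), the gene of the axr5 mutant, was listed at 8.52 and 16.8 in the wild type against 24.3 and 22.9 FPKM in the mutant. Its difference of 0.92 ± 0.35 came to 0.46 without Col-0 replicate 1. For IAA3, IAA4 and IAA1 the limma adjusted p was 0.842 in each case.

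IAA13 (AT2G33310) was listed at 27.4 and 34.3 in the wild type against 49.8 and 39.9 FPKM in the mutant, without overlap. Its difference of 0.53 ± 0.25 was 0.37 without Col-0 replicate 1. IAA19 (AT3G15540), which acts with ARF7 in hypocotyl bending, was listed at 9.01 and 18.3 in the wild type against 16.2 and 22.2 FPKM in the mutant. The genotypes overlapped, and its difference of 0.52 ± 0.38 was 0.051 without Col-0 replicate 1. IAA18 (AT1G51950) was listed at 19.8 and 28.7 in the wild type against 34.4 and 27.8 FPKM in the mutant (0.36 ± 0.28, limma adjusted p = 0.844). IAA14 (AT4G14550), the SOLITARY-ROOT repressor of lateral root initiation, and IAA26 (AT3G16500) ranged over 13.0 to 24.8 and 16.0 to 26.9 FPKM, with differences of 0.42 and 0.36. These 3 genes too were lowest in Col-0 replicate 1 and overlapped between genotypes. IAA12 (AT1G04550), the partner of ARF5 in the embryo known as BODENLOS, had its highest value in Col-0 replicate 1, at 22.7 FPKM against 13.3 to 17.4 FPKM in the others. IAA11 (AT4G28640) ranged over 7.09 to 11.9 FPKM with the extremes both in ect2.

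IAA28 (AT5G25890), a repressor of lateral root formation expressed mainly in roots, was the only Aux/IAA gene tested with both ect2 libraries below both Col-0 libraries. It was listed at 22.0 and 23.0 in the wild type against 16.2 and 15.04 FPKM in the mutant. Replicates were close in both genotypes, the difference was -0.50 ± 0.22 (limma, adjusted p = 0.842), and without Col-0 replicate 1 it was -0.53. The 5 root markers, SHR, SCR, PLT1, COBL9 and EXPA7, summed to 33.0 and 28.0 in the wild type against 40.1 and 32.3 FPKM in the mutant, and the genotypes overlapped. EXPA7 was above and SCR below both Col-0 libraries in both ect2 libraries, EXPA7 at 14.1 and 8.60 FPKM and SCR at 8.71 and 8.58 FPKM, where Col-0 had 6.21 and 7.18 FPKM of EXPA7 and 9.51 and 8.72 FPKM of SCR. The part of root content in the values of IAA28 was not tested.

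The remaining Aux/IAA genes were near the limit of 1 FPKM. IAA5 (AT1G15580) was listed at 1.36 and 0.971 in the wild type against 2.28 and 2.25 FPKM in the mutant, a difference of 0.60 ± 0.24 that was 0.73 without Col-0 replicate 1. IAA6 (AT1G52830) was listed at 0.184 and 1.20 in the wild type against 0.867 and 3.34 FPKM in the mutant. The genotypes overlapped, and its difference of 0.82 ± 0.52 was 0.37 without Col-0 replicate 1. IAA30 (AT3G62100) was listed at 1.39 and 1.83 in the wild type against 3.82 and 2.17 FPKM in the mutant, a difference of 0.59 ± 0.30 that was 0.46 without Col-0 replicate 1. IAA10 (AT1G04100) ranged over 1.95 to 3.89 FPKM, and in IAA5, IAA10 and IAA30 both ect2 libraries lay above both Col-0 libraries. For IAA5, IAA6 and IAA30 the limma adjusted p was 0.842. Below the filter were IAA15 (AT1G80390), listed at 0 in 3 libraries and at 0.233 FPKM in Col-0 replicate 1, and IAA20, IAA31, IAA32, IAA33 and IAA34, none above 1.08 FPKM. All 6 genes without the degron core pattern thus lay at or under 3.82 FPKM in every library, and IAA30 alone of them was tested. Among genes with the pattern, 22 of 23 were tested, and their median difference was 0.42, or 0.16 without Col-0 replicate 1.

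**Figure D3:**
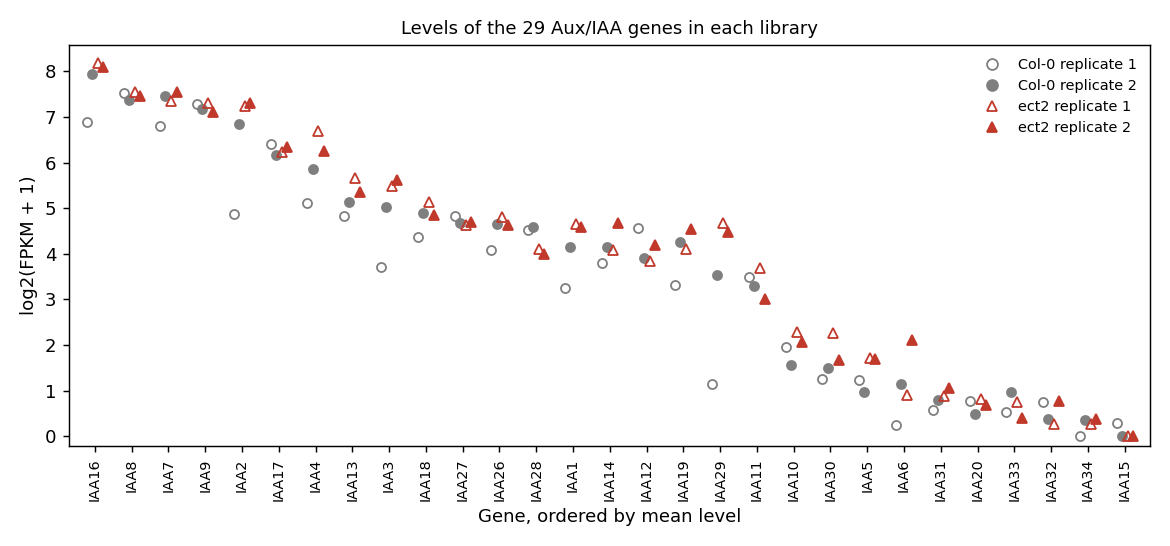
log2(FPKM + 1) of the 29 Aux/IAA genes in each library, ordered by mean level over the 4 libraries (circles, Col-0; triangles, ect2; open, replicate 1; filled, replicate 2). IAA2, IAA3 and IAA29 were listed far lower in Col-0 replicate 1 (28.4, 12.2 and 1.20 FPKM) than in the other 3 libraries, while IAA8 and IAA9 were level.

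Of the 23 Aux/IAA genes tested, 17 had a positive and 6 a negative difference, and the median was 0.42. Without Col-0 replicate 1 the median was 0.19, with 20 positive. Both ect2 libraries lay above both Col-0 libraries in 10 (17.5% of all genes tested) and below in 1 (20.2% of all). The genotypes overlapped in 12, as they did in 12038 of all 19308 genes tested. Some Aux/IAA genes lie as divergent neighbours with no other coding gene between them, and the members of each pair differed in size. On chromosome 1, IAA3 and IAA17 are separated by 6388 bases and had differences of 1.17 and -0.0032. On chromosome 3, IAA2 and IAA7 are separated by 12510 bases and had differences of 1.41 and 0.31. On chromosome 4, IAA14 and IAA1 are separated by 10732 bases and had differences of 0.42 and 0.92. These contrasts within pairs were not tested.

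The GH3 genes conjugate auxin to amino acids and are commonly used as auxin response markers. All 5 that were tested had a positive difference, with a median of 0.62, and in all 5 Col-0 replicate 1 was the lowest library. GH3.3 (AT2G23170) had close replicates, being listed at 7.19 and 9.39 in the wild type against 13.6 and 14.2 FPKM in the mutant. The genotypes were apart by 0.69 ± 0.24 (limma, adjusted p = 0.842), or 1.68-fold in mean FPKM, and by 0.52 without Col-0 replicate 1. GH3.5 (AT4G27260), also named WES1, was listed at 12.8 and 39.8 in the wild type against 40.2 and 45.5 FPKM in the mutant. Col-0 replicate 2 thus reached nearly the level of the mutant, and the difference of 0.88 ± 0.54 was 0.10 without Col-0 replicate 1. GH3.6 (AT5G54510), also named DFL1 after its short hypocotyl when overexpressed in light, was the most abundant, at 34.3 and 74.7 in the wild type against 72.0 and 84.9 FPKM in the mutant. It overlapped between genotypes, with 0.62 ± 0.40 over 4 libraries and 0.066 without Col-0 replicate 1. GH3.17 (AT1G28130), which conjugates auxin to glutamate, was listed at 15.6 and 22.2 in the wild type against 24.1 and 26.9 FPKM in the mutant (0.43 ± 0.26). GH3.2 (AT4G37390) ranged over 4.98 to 6.64 FPKM and overlapped. GH3.1 (AT2G14960) stayed at or under 0.847 FPKM, and GH3.4 (AT1G59500) was listed at 0 in all 4 libraries. Without Col-0 replicate 1 the median of the 5 tested was 0.10.

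The replicates of Col-0 differed by more than the genotypes in 25 of the 40 genes tested. The former is a difference between single libraries and the latter a difference between means of 2, which varies less, so the measures are unlike. The share of all genes for which this held was not computed, so the count has no background. Set against the mean of the 4 libraries, the Aux/IAA genes had a median deviation of -0.42 in Col-0 replicate 1, -0.035 in Col-0 replicate 2, and 0.31 and 0.11 in ect2 replicates 1 and 2. The GH3 genes stood at -0.52, 0.043, 0.19 and 0.37 in the same order, and all genes tested stayed within -0.024 and 0.034. In Col-0 replicate 1 the ARF genes stood at -0.26 and the receptors at -0.081. Of the wider list, further auxin-induced genes stood at -0.53 and synthesis genes at -0.30 in that library, while the list as a whole stood at -0.068. The library with low Aux/IAA and GH3 values was also the one with high seed storage and low sugar-starvation markers given above, and their part in the result was not tested. When Col-0 replicate 2 was left out, so that Col-0 replicate 1 alone stood for the wild type and was assumed to vary like the other libraries, limma called 6 of 39 genes, beside 2.74% of all genes tested. They were IAA1, IAA2, IAA3, IAA16, IAA29 and GH3.5, with differences between 1.25 and 3.44 and adjusted p between 0.00371 and 0.044. Leaving out any other library gave 0 calls among these genes.

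**Figure D4:**
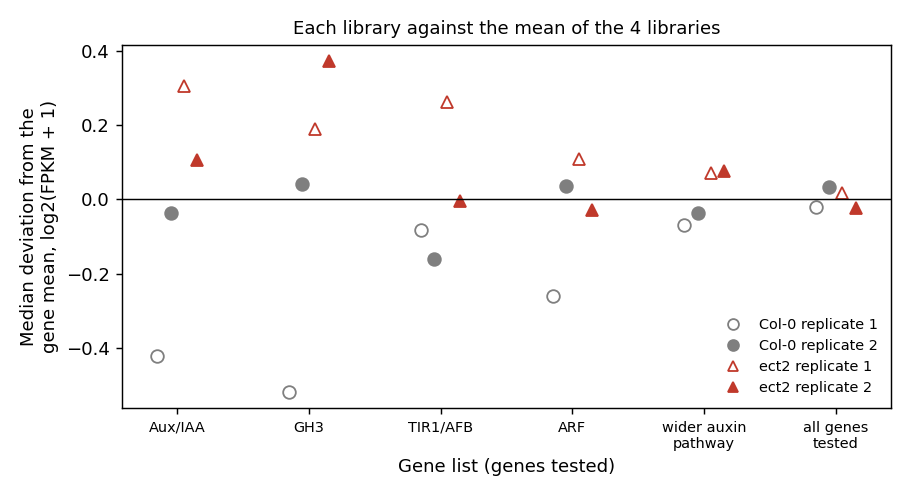
Median deviation of each list in each library from the gene's mean over the 4 libraries, on the log2(FPKM + 1) scale, over the genes tested in each list. Col-0 replicate 1 lay at -0.42 for Aux/IAA, -0.52 for GH3 and -0.26 for ARF genes, -0.081 for the receptors and -0.068 for the wider auxin pathway (circles, Col-0; triangles, ect2; open, replicate 1; filled, replicate 2).

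Promoters were examined because many of these genes are auxin-induced. In a window of 250 bases before to 50 bases after the annotated gene start (RefSeq, TAIR10.1), the auxin response element TGTCTC was present on either strand in 17 of 48 promoters, beside 14.193% of 27443 promoters of protein-coding genes. It was found in 12 of 29 Aux/IAA, 4 of 7 GH3, 1 of 5 receptor and 0 of 7 ARF promoters. The variant TGTCGG was present in 8 of 48 (5.123% of all), and CACGTG, the palindromic G-box bound by PIF factors, in 6 of 48 (7.678% of all). None of the 3 was found in 23 promoters, among them those of IAA2, IAA3, IAA4 and IAA29, the genes with the largest differences. Tested genes with TGTCTC numbered 11 and had a median difference of 0.59, and the 29 without it one of 0.31. Without Col-0 replicate 1 these medians were 0.30 and 0.15, and their contrast was not tested. All ARF genes and all receptors but AFB5 were among those without TGTCTC. With all libraries, the medians of ARF and receptor genes were 0.21 and 0.25, against 0.42 for Aux/IAA and 0.62 for GH3 genes. The contrast therefore mixes the element with the subfamily. Of genes tested, IAA1, IAA5, IAA13, IAA16, IAA30, GH3.3, GH3.5, AFB5 and ARF7 held TGTCTC or TGTCGG with both ect2 libraries above both Col-0 libraries. IAA28 held TGTCTC with both ect2 libraries below. IAA6, IAA8, IAA12, IAA19, IAA27, GH3.2 and ARF19 held TGTCTC or TGTCGG and overlapped between genotypes. IAA2, IAA3, IAA4, IAA10, IAA29, GH3.17, AFB1, ARF2 and ARF5 held neither, and their ect2 libraries also lay above both Col-0 libraries. A link between these elements and the differences was not tested. The promoters of IAA1, IAA5 and GH3.3 are shown as examples, all from genes with higher values in ect2. Elements are given in capitals on the strand of the gene from 5′ to 3′. There, TGTCTC read from the other strand appears as GAGACA and TGTCGG as CCGACA. The promoters shown lie at chr4:8360746-8361045 (plus strand), chr1:5366448-5366747 (minus strand) and chr2:9866513-9866812 (minus strand).
IAA1: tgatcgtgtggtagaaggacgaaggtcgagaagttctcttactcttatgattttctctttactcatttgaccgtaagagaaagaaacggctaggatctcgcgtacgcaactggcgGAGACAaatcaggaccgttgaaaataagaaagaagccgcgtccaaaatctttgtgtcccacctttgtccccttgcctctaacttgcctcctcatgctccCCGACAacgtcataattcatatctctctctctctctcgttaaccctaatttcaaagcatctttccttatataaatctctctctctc
IAA5: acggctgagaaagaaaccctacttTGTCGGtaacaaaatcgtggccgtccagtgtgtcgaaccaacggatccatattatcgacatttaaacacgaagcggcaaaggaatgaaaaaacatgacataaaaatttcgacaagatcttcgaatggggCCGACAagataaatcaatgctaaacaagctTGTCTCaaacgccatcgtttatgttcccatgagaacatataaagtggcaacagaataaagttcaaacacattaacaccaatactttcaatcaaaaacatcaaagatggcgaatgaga
GH3.3: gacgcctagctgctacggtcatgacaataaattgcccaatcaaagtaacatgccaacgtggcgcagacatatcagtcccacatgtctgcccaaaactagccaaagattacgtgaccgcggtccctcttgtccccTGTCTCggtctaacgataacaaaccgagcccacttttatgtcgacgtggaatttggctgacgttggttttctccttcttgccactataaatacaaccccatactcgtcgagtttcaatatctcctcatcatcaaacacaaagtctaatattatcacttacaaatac

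A wider list of 74 auxin genes outside these 48 was examined beside them, and 60 were tested, of which 0 were called. Of the 60, 44 had a positive and 16 a negative difference, where 48.8% of all genes tested were positive. Without Col-0 replicate 1, 39 were positive, beside 45.8% of all genes. The median was 0.094, or 0.10 without Col-0 replicate 1. Synthesis genes had 6 positive differences of 8 tested, and YUC8 (AT4G28720), a flavin monooxygenase gene of auxin synthesis, was listed at 2.29 and 2.63 in the wild type against 4.67 and 7.29 FPKM in the mutant (0.99 ± 0.28, and 0.92 without Col-0 replicate 1). TAR2 (AT4G24670), the aminotransferase gene of the preceding step, stood at 10.9 and 7.41 FPKM and at 6.02 and 6.80 FPKM, lower in both ect2 libraries. Transport genes had 12 positive of 15, and PIN3 (AT1G70940), an efflux carrier gene of tropic growth, was listed at 34.2 and 46.9 in the wild type against 63.0 and 61.7 FPKM in the mutant (0.63 ± 0.25, and 0.40 without Col-0 replicate 1). PIN5 (AT5G16530), whose carrier sits at the endoplasmic reticulum, had the opposite order, at 3.87 and 2.24 FPKM and at 1.096 and 1.54 FPKM (-0.78 ± 0.30, and -0.49 without Col-0 replicate 1).

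Genes for conjugate hydrolysis and inactivation had 6 positive of 10, with ILL6 (AT1G44350), an amidohydrolase gene of the ILR1 family, at 4.41 and 9.26 in the wild type against 15.5 and 20.7 FPKM in the mutant (1.35 ± 0.37, and 0.89 without Col-0 replicate 1), and ILL1 (AT5G56650) at -0.096. Among genes for the SCF machinery and the corepressors, 9 of 12 differences were positive, and they lay between -0.14 and 0.27, with ASK2 (AT5G42190) at -0.10 and TPR2 (AT3G16830) at 0.27. Other ARF genes had 4 positive of 8, with ARF18 (AT3G61830) at 0.52, or 0.29 without Col-0 replicate 1, and ARF4 (AT5G60450) at -0.26, and other GH3 genes 3 positive of 3, with the jasmonate-conjugating JAR1 (AT2G46370) at 0.16. Further auxin-induced genes had 4 positive of 4. Among them ACS4 (AT2G22810), an ethylene synthesis gene, passed the filter by way of ect2 only, at 0.532 and 0 in the wild type against 1.87 and 1.55 FPKM in the mutant (1.13 ± 0.31, and 1.44 without Col-0 replicate 1). The filter thus fixed the sign of ACS4 in advance, and its place in the counts of positive differences carries no weight. The smallest adjusted p in the wider list was 0.842 (limma). Positive counts without Col-0 replicate 1 were 5 of 8 for synthesis and 13 of 15 for transport. They were 6 of 10 for hydrolysis and inactivation, 7 of 12 for SCF machinery and corepressors, and 2 of 8 for other ARF genes. Other GH3 genes then had 2 of 3 and further auxin-induced genes 4 of 4.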

How the data were processed

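Whole-seedling polyadenylated RNA of Col-0 and ect2 was measured in 2 libraries each. Per the submitters' processing notes, cutadapt and TopHat were used with TAIR10. No label names the quantifier or the scaling. The deposited values, 1 table for each library, were read as FPKM, an inference from an identifier column of Cufflinks type and from values that are not whole and sum differently.

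A gene entered the test at 1 FPKM in 2 libraries (19308 genes). limma 3.58.1 (R 4.3.3) was applied to log2(FPKM + 1) with trend and robust estimation, a scale that understates differences of low genes, and two-sided p-values were Benjamini-Hochberg adjusted across these genes at 0.05. The steps were tested on simulated data. The 48 genes and the lists were chosen with earlier results of these data known. All 48 are reported, in full those with a difference of at least 0.5, a mean of at least 30 FPKM in either genotype, and the receptors; of each wider list, the gene of smallest p per direction. Sequences came from RefSeq TAIR10.1. The settings varied were the block, the libraries, the scaling (TMM, equal medians), the pseudocount (0.1), the filter and the trend.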

Additional observations from a re-analysis of the deposited data

How the results depend on the processing

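With 2 libraries a genotype and an unknown depth, values near 1 FPKM rest on few reads, and a single library can set a difference. The deviations of same-numbered libraries from their genotype means had a correlation of 0.0138 across all genes tested, a value that does not speak for single genes. Whether same-numbered libraries shared a batch or a harvest was not tested. With the replicate number as a block, limma called 6 genes in place of 5 and 0 of the 40. In this balanced design a block changes the standard errors but cannot change a difference, so the same medians were fixed in advance. Leaving out a library in turn, the number of genes called ranged from 0 to 520 and that of the genes described here from 0 to 6. Of all genes, 11 were called when Col-0 replicate 1 was left out, and 520 when Col-0 replicate 2 was. Beside the count of 0 without an ect2 library, limma gave 284 genes (without replicate 1) and 431 genes (without replicate 2) at an unadjusted p below 0.05. The medians ranged from 0.19 to 0.63 for Aux/IAA, 0.10 to 0.87 for GH3, 0.094 to 0.38 for receptor, 0.045 to 0.28 for ARF and 0.099 to 0.15 for wider pathway genes, positive in each case. The wider pathway median was also 0.060 with equal library medians and 0.11 with a pseudocount of 0.1. The cause of these shifts was not tested. Of the 40 differences, 6 changed sign without Col-0 replicate 1 (IAA7, IAA9, IAA11, IAA12, IAA17 and ARF19), 2 without Col-0 replicate 2, 1 without ect2 replicate 1, 4 without ect2 replicate 2 and 1 with equal library medians. TMM factors and the pseudocount of 0.1 changed no sign. Dropping the filter or the trend leaves each difference as it was and so cannot change a sign. TMM factors, the pseudocount of 0.1, no filter and limma without trend called 5, 6, 4 and 5 genes, with 0 of these 40.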
